A study of Callithrix jacchus with 39 samples.

Results

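Primed embryonic stem cells (ESCs) of the common marmoset, Callithrix jacchus, were compared between 3 libraries titled N40_P_Tg, called N40 primed Tg here, and 3 libraries titled No.40, which are the 6 libraries of interest out of 18 ESC libraries and 39 libraries in all. Members were chosen by title alone, and the 2 run columns of each library were summed. Both groups are labelled primed ESCs, and neither label gives a genotype, a medium or a passage. The labels do not define Tg and do not say whether the N40 cells were made from No.40, so the cell line and Tg cannot be told apart. Separate cultures are not stated for the replicates either, so the p-values cover only how far these libraries differ, a spread that could be technical. The other ESC groups used here were DSY-c2 primed Tg and DSY127, a second pair of primed cells with no library in common with the first, and N40 naive TgOFF and DSY-c2 naive TgON, each of 3 libraries.

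Primed ESCs stand close to the epiblast that has begun to implant: they express POU5F1, SOX2 and NANOG, the core transcription factors of pluripotency, and depend on FGF and activin signals. Such cultures often hold cells that have begun to differentiate. Cells that leave pluripotency towards mesoderm or endoderm lose epithelial junctions, switch on factors such as ZEB2 or GATA6 and secrete a matrix of collagens, fibronectin and laminins. In a bulk library, fewer cells of such a type and less RNA per cell cannot be told apart.

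Library totals were 75 to 78.7 M counts (M, 1e6) for N40 primed Tg and 38.8 to 56.7 M counts for No.40. Of 17957 genes tested, 11562 had a symbol. Markers of primed ESCs were present in every library: 9 of 10 listed markers were matched, and their summed level was 6509, 6244 and 6737 CPM (counts per 1e6 counts) in N40 primed Tg, against 4775, 5587 and 6667 CPM in No.40. Column names end in L and a number, which is read here as a sequencing lane, although no label says so. The numbers were 1 and 2 for all N40 primed Tg libraries and for No.40 replicates 2 and 3, and 6 and 7 for No.40 replicate 1. Values without No.40 replicate 1 are therefore values within 1 pair of such numbers. Across all tested genes, log2 CPM of No.40 replicate 3 correlated as highly with the N40 primed Tg libraries (r = 0.969 to 0.974) as with No.40 replicates 1 and 2 (r = 0.968 and 0.969), while replicates 1 and 2 had r = 0.938 to 0.945 with N40 primed Tg. These are descriptions over the same genes, with no test.

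In N40 primed Tg, 11 of 15 mesenchymal, 5 of 16 endoderm and 39 of 132 matrix and integrin genes tested were called lower than in No.40. In a fit of these 6 libraries alone, 9 mesenchymal and 0 endoderm genes were called lower. Most genes of 2 chromosomal neighbourhoods were also called lower. Among pluripotency genes, UTF1, SOX2 and LIN28A were called higher and LIN28B lower, and POU5F1 and NANOG were not called. Of 10 primed and 15 naive pluripotency genes tested, none and 1 were called higher, and 1 and 3 lower. In edgeR's quasi-likelihood test, 3937 genes (21.9%) passed an adjusted p of 0.05 (Benjamini-Hochberg), which is what called means here. Of these, 1490 (8.3% of genes tested) were higher and 2447 (13.6%) were lower in N40 primed Tg. Large changes were mostly falls: 148 genes were called at least 2-fold higher and 1356 at least 2-fold lower. The median log2 fold change over all tested genes was -0.05, and the size factors of DESeq2 shifted it by 0.03. Within the lane numbers shared by both groups, that is without No.40 replicate 1, 1519 genes were called higher and 1322 lower, so that rises outnumbered falls. Rises also outnumbered falls without No.40 replicate 2 (2064 higher, 1693 lower), without No.40 replicate 3 (2528 higher, 2212 lower) and with no filter on low counts (1873 higher, 1816 lower). Which direction had more calls therefore depended on the No.40 libraries and on the filter. Falls still outnumbered rises without N40 primed Tg replicate 2 (1132 higher, 1439 lower) or 3 (1183 higher, 1552 lower).

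To separate changes that depend on which No.40 library is taken from changes seen against all of them, called genes were sorted by 2 properties. A gene was clear if all 9 differences in log2 CPM between an N40 primed Tg and a No.40 library had the sign of its fold change. It was variable if its highest and lowest No.40 libraries differed at least 2-fold, and steady otherwise. Of the genes tested, 1398 (7.79%) were called higher and clear, and 2177 (12.1%) were called lower and clear. Steady and clear rises numbered 1361 (7.58%), and steady and clear falls numbered 1264 (7.04%). Variable falls numbered 1089 (6.06%), of which 913 were clear of every No.40 library and 176 overlapped. Variable rises numbered 38, of which 37 were clear. Steady and clear falls numbered 657 without No.40 replicate 1, 723 without N40 primed Tg replicate 2 and 794 without N40 primed Tg replicate 3. Variable falls numbered 665, 627 and 655 without No.40 replicate 1, 2 and 3, and 716 without N40 primed Tg replicate 2. Steady and clear rises numbered 2303 without No.40 replicate 3. A variable gene needs a larger difference to be called, so the sizes of the classes' changes follow in part from the sorting: the median log2 fold change was -3.56 for variable falls, -0.64 for steady and clear falls and 0.44 for steady and clear rises. Among all genes tested, 24.9% were variable, against 44.5% of the genes called lower and 2.55% of the genes called higher. Low counts vary more, and among genes with a mean of at least 10 CPM in either group the shares were 6.57% of all, 18.5% of those called lower and 0.817% of those called higher.

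**Figure D1:**
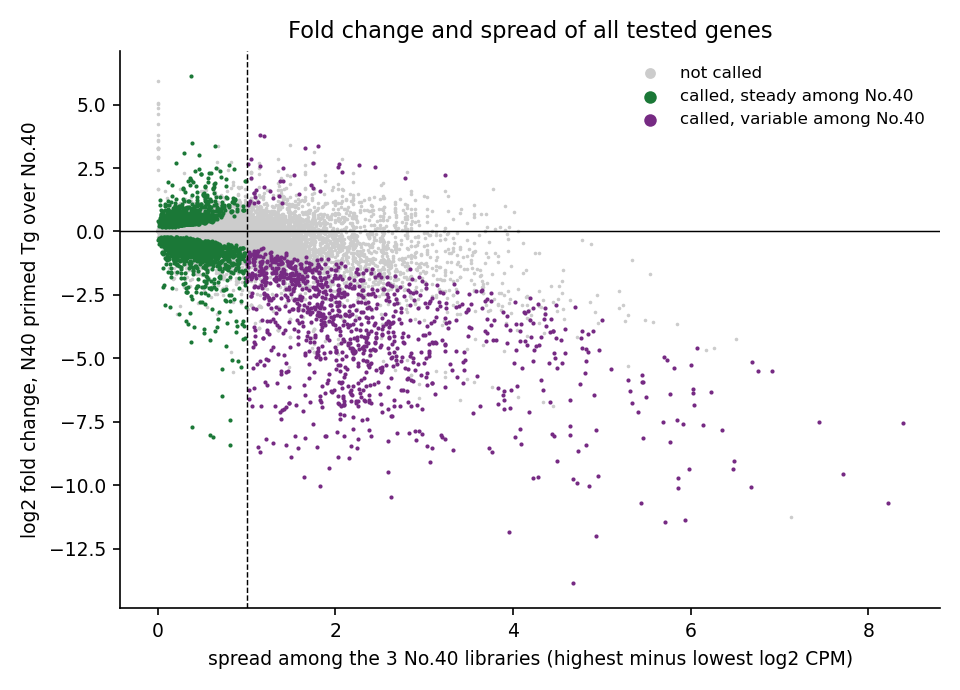
Log2 fold change of each tested gene in N40 primed Tg over No.40 (vertical axis) against the spread of the same gene among the 3 No.40 libraries in log2 CPM (horizontal axis). Grey points were not called, green points were called and steady, and purple points were called and variable, with the dashed line at a 2-fold spread. Falls reach far to the right of the line, and rises stay mostly to its left.

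No.40 replicate 3 was the lowest No.40 library for 971 of the 1089 genes. Replicate 2 was the highest for 677 and replicate 1 for 400. Of all 4467 genes variable among No.40, replicate 3 was the lowest for 2280. Of the variable falls, 58.9% were also variable by at least 2-fold among the 3 DSY127 libraries, which took no part in the sorting, against 14.9% of all tested genes and 3.32% of steady and clear falls. Low counts vary more in any library, and these shares were not matched for level. The part of level in them was not tested.

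The 6 largest variable falls that could be named were MYL7, POSTN, TRPA1, CER1, GATA6 and COL3A1. CER1, a secreted inhibitor of NODAL and BMP made by anterior endoderm, had 0.426, 0.414 and 0.244 CPM in N40 primed Tg, against 1113, 45.2 and 10.8 CPM in No.40. GATA6, a transcription factor of endoderm and heart, had 0.1, 0.0518 and 0.0272 CPM in N40 primed Tg, against 112, 9.92 and 1.23 CPM in No.40. For both genes the groups did not overlap, and No.40 replicate 1 held most of the signal. Their log2 fold changes were -10.06 ± 2.36 (SE, adjusted p = 0.0108) and -9.36 ± 2.08 (adjusted p = 0.00643) in the fit across all genes. Without No.40 replicate 1 the adjusted p was 0.0303 for CER1 and 0.0231 for GATA6. In the fit of the 6 libraries alone it was 0.0518 and 0.0526, so neither was called there.

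POSTN, which encodes the matrix protein periostin, had 0, 0.0518 and 0.0272 CPM in N40 primed Tg, against 233, 57.3 and 15.0 CPM in No.40. TRPA1, a cation channel gene, had 0.0501, 0 and 0 CPM in N40 primed Tg, against 84.4, 8.94 and 1.91 CPM in No.40. Both were highest in No.40 replicate 1 and lowest in replicate 3, and both fell (adjusted p = 0.000937 for POSTN and 0.00282 for TRPA1). MYL7, the atrial myosin light chain, had no count in any N40 primed Tg library, against 78.2, 5.84 and 3.03 CPM in No.40. Taking 3 counts over the 3 libraries as the floor, it was at least 2294-fold lower (adjusted p = 0.00333), and at least 322-fold lower without No.40 replicate 1. In the fit of the 6 libraries alone the adjusted p was 0.0187 for POSTN, 0.0411 for TRPA1 and 0.0858 for MYL7. COL3A1, a fibrillar collagen of mesenchyme, had 0.225, 0.505 and 0.326 CPM in N40 primed Tg, against 182, 181 and 81.8 CPM in No.40. It varied least of these 6 genes among No.40 libraries and fell by 8.71 ± 1.12 on the log2 scale (SE, adjusted p = 0.000201).

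The 12 lists of differentiated-cell and matrix genes were then read as groups. In 5 lists of collagens, basement membrane, matrix glycoproteins, matrix enzymes and integrins, 39 of 132 tested genes (29.5%) fell and 2 rose, against 13.6% and 8.3% of all genes. Of the 39 that fell, 35 were clear, 32 were variable among No.40 and 7 were steady and clear. Of all genes tested, 12.1% were called lower and clear, 6.06% were variable falls and 7.04% were steady and clear falls. The median log2 fold change of the 132 genes was -0.6. In 7 lists of mesenchyme, muscle, mesoderm, endoderm, neural, amnion or trophoblast and endothelial genes, 30 of 88 tested genes (34.1%) fell and none rose. Of these 30, 26 were clear, 29 were variable and 1 was steady and clear. The median log2 fold change of the 88 genes was -1.57, and 75% of them were variable among No.40. Without No.40 replicate 1, 26 of the 39 and 19 of the 30 were still called lower. Without replicate 2 it was 32 and 25, and without replicate 3 it was 39 and 28. In all, 24 matrix and 16 differentiated-cell genes were called lower whichever of the 3 libraries was left out. The matrix lists differed in this. Without No.40 replicate 1, falls went from 5 to 0 for basement membrane, from 8 to 3 for matrix enzymes and from 5 to 3 for integrins. They went from 5 to 4 for collagens and stayed at 16 for matrix glycoproteins. These lists and their members were chosen with earlier results known, and the counts describe them without a test of the list.

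**Figure D2:**
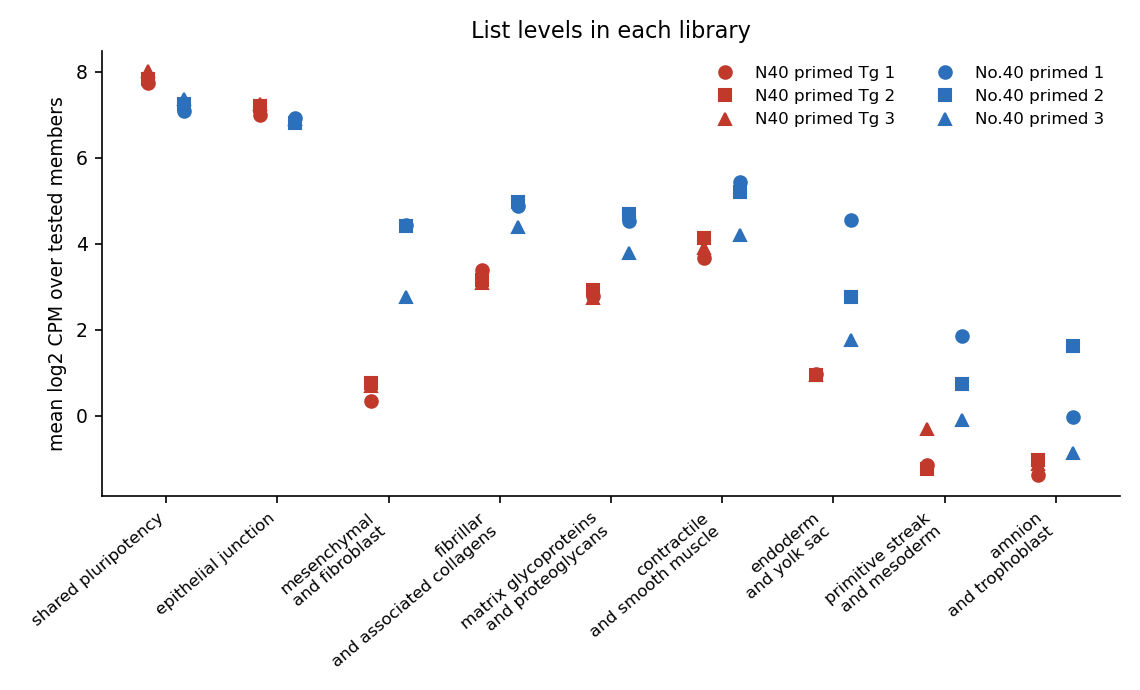
Mean log2 CPM over the tested members of 9 gene lists (vertical axis) in each N40 primed Tg library (red) and each No.40 library (blue), with circles, squares and triangles for replicates 1, 2 and 3. Mesenchymal genes stand at 0.34 to 0.75 in N40 primed Tg and at 2.77 to 4.44 in No.40, where replicate 3 is the lowest in each matrix and differentiated-cell list shown.

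Different No.40 libraries were high for different cell types. Endoderm and yolk sac genes had a mean log2 CPM of 0.98, 0.95 and 0.95 in N40 primed Tg, against 4.55, 2.76 and 1.76 in No.40. Here 5 of 16 fell (2 without No.40 replicate 1 and 0 in the fit of the 6 libraries), and all 5 were variable. The summed CPM of the list overlapped between the groups, at 687, 816 and 887 CPM in N40 primed Tg, against 2198, 757 and 722 CPM in No.40. HNF4A, a nuclear receptor of endoderm, had 0.175, 0.116 and 0.244 CPM in N40 primed Tg, against 37.3, 3.73 and 0.903 CPM in No.40 (adjusted p = 0.00712, and 0.0505 without No.40 replicate 1). Primitive streak and mesoderm genes had -1.16, -1.23 and -0.30 in N40 primed Tg, against 1.85, 0.74 and -0.10 in No.40. Of these, 5 of 12 fell (2 without No.40 replicate 1 and 0 in the fit of the 6 libraries). The 5 included the streak transcription factors EOMES and TBXT. EOMES had 0, 0.116 and 0.706 CPM in N40 primed Tg, against 62.9, 4.30 and 1.12 CPM in No.40. TBXT had 2.43, 3.75 and 4.82 CPM in N40 primed Tg, against 44.9, 3.56 and 7.12 CPM in No.40, so its groups overlapped. Both were highest in No.40 replicate 1. Without that library their adjusted p was 0.151 and 0.623, and it was also above 0.05 without N40 primed Tg replicate 1 or 2 for both and replicate 3 for TBXT.

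Amnion and trophoblast genes were highest in No.40 replicate 2, with a mean log2 CPM of -1.39, -1.03 and -1.12 in N40 primed Tg, against -0.02, 1.63 and -0.87 in No.40. TFAP2A, a transcription factor of amnion, trophoblast and neural crest, had 0.326, 0.349 and 0.448 CPM in N40 primed Tg, against 2.89, 12.7 and 1.99 CPM in No.40, and it fell (adjusted p = 0.00103). ITGB6, an epithelial integrin subunit, had 0.0251, 0.0776 and 0.109 CPM in N40 primed Tg, against 0.836, 41.8 and 0.562 CPM in No.40. MMP9, a matrix protease, had 2.22, 2.08 and 2.96 CPM in N40 primed Tg, against 20.6, 305 and 2.49 CPM in No.40. Both were called lower and both were highest in No.40 replicate 2. ITGB6 lost its call without that library (adjusted p = 0.142) and without any 1 N40 primed Tg library (0.0543 to 0.0638).

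Mesenchymal genes were high in No.40 replicates 1 and 2 and lower in replicate 3, and 11 of 15 fell, all clear of every No.40 library (7 of 15 without No.40 replicate 1). ZEB2, a repressor that drives the loss of epithelial junctions, had 0.1, 0.621 and 0.190 CPM in N40 primed Tg, against 39.4, 59.2 and 8.91 CPM in No.40. It fell by 6.87 ± 1.01 on the log2 scale (SE, adjusted p = 0.000416). PRRX1, a homeobox factor of mesenchyme, had 0.15, 0.466 and 0.367 CPM in N40 primed Tg, against 33.1, 61.1 and 14.9 CPM in No.40 (adjusted p = 8.9e-05). VIM, the mesenchymal intermediate filament, had 37.7, 34.7 and 36.3 CPM in N40 primed Tg, against 1098, 1028 and 129 CPM in No.40 (adjusted p = 0.00646). FN1, which encodes fibronectin, had 159, 137 and 152 CPM in N40 primed Tg, against 10768, 3962 and 577 CPM in No.40 (adjusted p = 0.00285). In these 4 genes every N40 primed Tg library was below every No.40 library. The fibroblast marker COL1A1 stayed present at 761, 595 and 492 CPM in N40 primed Tg, against 1415, 1291 and 902 CPM in No.40, and was not called (adjusted p = 0.115).

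Marker sums were lower in every N40 primed Tg library than in every No.40 library for fibroblast, endoderm, mesoderm and amnion markers. By single marker, the N40 primed Tg mean was below every No.40 library for 6 of 7 fibroblast and 3 of 6 endoderm markers. It was so for 1 of 5 mesoderm and 2 of 3 amnion markers, so the sums do not speak for each marker. Of 7 matched fibroblast or mesenchyme markers, the summed level was 618 to 857 CPM in N40 primed Tg, most of it COL1A1, against 1232 to 2305 CPM in No.40. The 6 matched endoderm markers summed to 8.41 to 9.54 CPM in N40 primed Tg, against 1285, 68.5 and 18.4 CPM in No.40. The 5 mesoderm markers summed to 9.05 to 11.6 CPM in N40 primed Tg, against 133, 12.2 and 15.8 CPM in No.40. The 3 matched amnion or trophoblast markers summed to 1.57 to 2.51 CPM in N40 primed Tg, against 4.52, 27.2 and 4.5 CPM in No.40. Neural and endothelial or blood sums overlapped between the groups: 234 to 277 CPM in N40 primed Tg against 201 to 252 CPM in No.40, and 163 to 235 CPM in N40 primed Tg against 179.9 to 349 CPM in No.40. No matched marker was at 0 in all libraries of a group. The part of these marker levels in the gene counts above was not tested.

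Signalling genes were counted in the same way, against 13.6% of all tested genes called lower and 8.3% called higher. Of NODAL and TGF-beta genes, 7 of 17 fell and none rose. This was 4 without No.40 replicate 1 or replicate 2, and 2 in the fit of the 6 libraries alone. INHBA, a subunit of activin A, had 0.125, 0.582 and 0.611 CPM in N40 primed Tg, against 25.7, 39.7 and 6.41 CPM in No.40 (adjusted p = 0.000107). Of BMP genes, 5 of 9 fell and none rose, and 3 fell in the fit of the 6 libraries. The receptor gene BMPR1A fell and was steady among No.40, with 88.8, 88.2 and 90.7 CPM in N40 primed Tg, against 138, 115 and 115 CPM in No.40 (adjusted p = 0.00191). Of WNT genes, 5 of 20 fell, all variable among No.40 and 2 of them clear. It was 2 without No.40 replicate 1 and 1 in the fit of the 6 libraries. Those that fell included the receptor gene LGR5 and the ligand gene WNT5A. Of FGF genes, 1 of 15 rose and 1 fell. The one that fell was SPRY2, an inhibitor of FGF signalling, at 0, 0.0259 and 0.0272 CPM in N40 primed Tg, against 1.62, 1.77 and 0.818 CPM in No.40 (adjusted p = 5.91e-05).

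The second pair of primed groups, DSY-c2 primed Tg and DSY127, was used to see whether the 2 kinds of fall recur in other cells. There the lane numbers were 6 and 7 for DSY-c2 primed Tg and 1 and 2 for DSY127, so lane number and group cannot be told apart. At the variable falls, the median log2 fold change of DSY-c2 primed Tg over DSY127 was -1.03, and 258 of 1089 genes (23.7%) were called lower there, against 1.72% of all tested genes. At the steady and clear falls, that median was -0.03 and 13 of 1264 (1.03%) were called lower. At the steady and clear rises it was 0.08 and 7 of 1361 (0.514%) were called higher, against 0.156% of all tested genes. Of the steady and clear rises 75.5% had the same sign in the DSY pair, as had 56.4% of the steady and clear falls and 79.5% of the variable falls, while 49.2% of all tested genes were below 0 there. The median over all tested genes was 0.

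**Figure D3:**
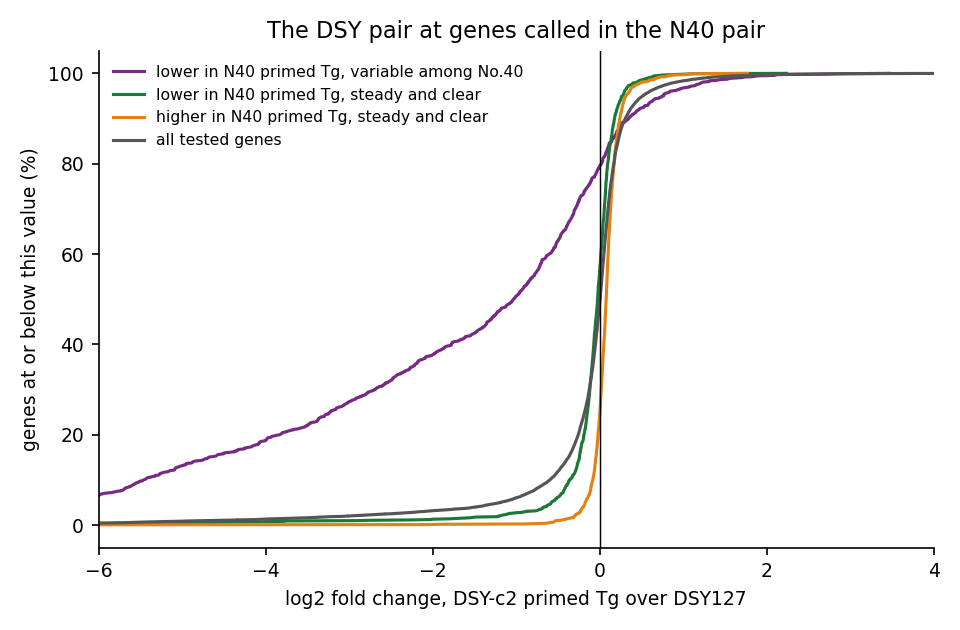
Cumulative share of genes (vertical axis, percent) by log2 fold change of DSY-c2 primed Tg over DSY127 (horizontal axis), for genes sorted by their change in N40 primed Tg against No.40. The curve of variable falls (purple) lies left of the others, with a median of -1.03, while steady falls (green) and steady rises (orange) have medians of -0.03 and 0.08.

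Single genes of the variable class behaved in different ways in the second pair. PRRX1, COL3A1 and ZEB2 fell in both pairs: their log2 fold changes in DSY-c2 primed Tg over DSY127 were -6.65, -5.95 and -5.64 (adjusted p = 0.000792, 0.00408 and 0.00538). POSTN and CER1 varied widely within both DSY groups and were not called there. CER1 had 129.5, 2055 and 102 CPM in DSY-c2 primed Tg, against 290, 16.1 and 44.0 CPM in DSY127. FN1 had 1848, 9842 and 1132 CPM in DSY-c2 primed Tg, against 3997, 2211 and 6929 CPM in DSY127. The difference between the 2 pairs, N40 primed Tg minus No.40 less DSY-c2 primed Tg minus DSY127, was called for 570 genes (3.17%), of which 410 (2.28%) were below 0. It was called for 319 of the steady and clear falls and for 75 of the variable falls. For POSTN it was -11.09 ± 2.23 (SE, adjusted p = 0.0187), for CER1 -12.77 ± 2.83 (adjusted p = 0.0353) and for FN1 -5.06 ± 1.25 (adjusted p = 0.044) on the log2 scale. Without 1 of the 12 libraries at a time, the count of 570 ranged from 205 to 907, lowest without DSY127 replicate 2 and highest without No.40 replicate 3. Without N40 primed Tg replicate 2 or 3, DSY-c2 primed Tg replicate 2, 4 or 5, DSY127 replicate 1 or 3 or No.40 replicate 1 it was also more than 1.5 times lower, at 213, 256, 292, 338, 346, 236, 255 and 219 genes.

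The steady rises included genes of the pluripotent state. UTF1, a chromatin-bound factor of undifferentiated pluripotent cells, had 49.9, 66.5 and 62.9 CPM in N40 primed Tg, against 8.72, 12.1 and 11.8 CPM in No.40. The groups were far apart, and UTF1 rose by 2.46 ± 0.22 on the log2 scale (SE, adjusted p = 5.35e-06). In the DSY pair it had 15.4, 11.4 and 8.80 CPM in DSY-c2 primed Tg, against 9.54, 7.73 and 6.46 CPM in DSY127, and the difference between the pairs was 1.87 ± 0.30 (SE, adjusted p = 0.0034). SOX2 had 144, 144 and 203 CPM in N40 primed Tg, against 73.6, 86.7 and 111 CPM in No.40, and rose by 0.86 ± 0.19 (SE, adjusted p = 0.00459). LIN28A, an RNA-binding protein that blocks let-7, had 502, 518 and 599 CPM in N40 primed Tg, against 340.4, 362 and 413 CPM in No.40, and rose by 0.54 ± 0.11 (SE, adjusted p = 0.00274).

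Of 8 tested shared pluripotency genes, 5 rose and 1 fell, beside 8.3% of all tested genes called higher and 13.6% called lower. SALL4 and DPPA2 rose by 0.30 and 0.67 on the log2 scale (adjusted p = 0.0318 and 0.0286). SALL4 lost its call without N40 primed Tg replicate 3 (adjusted p = 0.0814). DPPA2 lost its call without N40 primed Tg replicate 3 (adjusted p = 0.116) and without No.40 replicate 1 (adjusted p = 0.0661). The gene that fell was LIN28B, the paralogue of LIN28A, with 464, 389.8 and 425 CPM in N40 primed Tg, against 625, 509 and 624 CPM in No.40 (log2 fold change -0.46 ± 0.10, SE, adjusted p = 0.00389). Its call was lost without No.40 replicate 1 (adjusted p = 0.0635) or replicate 3. POU5F1 had 1499, 1594 and 1661 CPM in N40 primed Tg, against 1041, 1187 and 1457 CPM in No.40, and missed the threshold (log2 fold change 0.37, adjusted p = 0.0624), which it passed with the size factors of DESeq2 (adjusted p = 0.0479) and without No.40 replicate 3 (adjusted p = 0.00442). NANOG overlapped between the groups, at 477, 551 and 576 CPM in N40 primed Tg, against 414, 413 and 497 CPM in No.40 (adjusted p = 0.173), and passed only without No.40 replicate 3 among the libraries left out (adjusted p = 0.0283). The summed level of the 9 primed ESC markers was higher in No.40 replicate 3 than in replicates 1 and 2, while differentiated-cell genes were lower there. The part of one in the other was not tested.

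Of 10 primed pluripotency genes none rose and 1 fell: NEFL, a neurofilament gene, was highest in No.40 replicate 1, at 5.11, 4.48 and 3.23 CPM in N40 primed Tg, against 30.5, 9.55 and 3.95 CPM in No.40 (adjusted p = 0.023, and 0.289 without that library), and also lost its call without N40 primed Tg replicate 2 or 3. DNMT3B, the de novo DNA methyltransferase of primed cells, had 2704, 2254 and 2354 CPM in N40 primed Tg, against 2016, 2659.7 and 3007 CPM in No.40 and was not called. Of 15 naive pluripotency genes, 1 rose and 3 fell. All lists here stand beside 8.3% of all tested genes called higher and 13.6% called lower. PRDM14, a repressor that guards pluripotency and germ cell fate, had 341, 402 and 559 CPM in N40 primed Tg, against 227, 277 and 277 CPM in No.40 (log2 fold change 0.74, adjusted p = 0.0115, and 0.0536 without N40 primed Tg replicate 3). KLF17 and ARGFX, transcription factors of the early embryo, and TET2, which oxidises methylated DNA, were called lower, and all 3 calls were lost without No.40 replicate 1. Of the reprogramming factors, 3 of 8 rose: SOX2, LIN28A and MYC. MYC had 271, 304 and 367 CPM in N40 primed Tg, against 212, 199.9 and 254 CPM in No.40 (log2 fold change 0.50, adjusted p = 0.0194, and 0.0722 without N40 primed Tg replicate 3). EIF1AY, the only tested gene of the X inactivation and Y-linked list, was expressed in both groups, at 96.1, 115 and 101 CPM in N40 primed Tg, against 79.6, 76.5 and 74.8 CPM in No.40, and rose by 0.43 ± 0.09 on the log2 scale (SE, adjusted p = 0.003).

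Other steady rises were of many functions. CLDN3, a claudin of epithelial tight junctions, had 45.0, 55.6 and 71.1 CPM in N40 primed Tg, against 15.2, 12.5 and 16.5 CPM in No.40 (log2 fold change 1.95 ± 0.27, SE, adjusted p = 0.000215). ATP5F1D, a subunit of the mitochondrial ATP synthase, had 30.7, 35.0 and 34.0 CPM in N40 primed Tg, against 7.96, 7.12 and 10.6 CPM in No.40 (adjusted p = 5.91e-05). ULK4, a pseudokinase gene, had 40.9, 43.1 and 52.8 CPM in N40 primed Tg, against 15.1, 15.3 and 21.6 CPM in No.40 (adjusted p = 0.000108). In each of these 3 genes the N40 primed Tg libraries were all above every No.40 library. SCAND1, FJX1 and ANKRD9 were the other steady rises of this size that are not immediate early genes or their targets.

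Immediate early genes, which respond within minutes to serum, growth factors or handling, rose with a wide spread among the N40 primed Tg libraries. FOS had 217, 432 and 24.1 CPM in N40 primed Tg, against 9.56, 18.1 and 22.0 CPM in No.40. FOSB had 19.8, 85.0 and 6.72 CPM in N40 primed Tg, against 3.71, 5.03 and 5.13 CPM in No.40. In both, N40 primed Tg replicate 2 was the highest library and replicate 3 was close to No.40. FOS rose by 3.76 ± 0.88 on the log2 scale (SE, adjusted p = 0.00841). FOSB rose by 3.01 ± 0.82 (SE, adjusted p = 0.0185), but not without N40 primed Tg replicate 2 (1.56, adjusted p = 0.123) or without No.40 replicate 1 (adjusted p = 0.0596). CCN1, a secreted matrix-associated protein, had 606, 1190.1 and 422 CPM in N40 primed Tg, against 170.3, 203 and 124 CPM in No.40 (adjusted p = 0.0292), and lost its call without N40 primed Tg replicate 2, No.40 replicate 1 or No.40 replicate 3 (adjusted p = 0.11, 0.0642 and 0.0608). ARC, which is induced by neuronal activity in brain, had 15.6, 12 and 20.5 CPM in N40 primed Tg, against 3.69, 4.13 and 3.2 CPM in No.40 and kept its call with each library left out (adjusted p = 0.000236). In all, 4 of 6 tested immediate early genes rose and 1, NR4A2, fell, beside 8.3% of all tested genes called higher and 13.6% called lower. In the fit of the 6 libraries alone, 1 was called higher and 1 lower. The largest variable rises were FOS, the natriuretic peptide gene NPPB and ZFP36, which encodes a protein that destabilises mRNA. ZFP36 lost its call without N40 primed Tg replicate 2 (adjusted p = 0.0818).

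**Figure D4:**
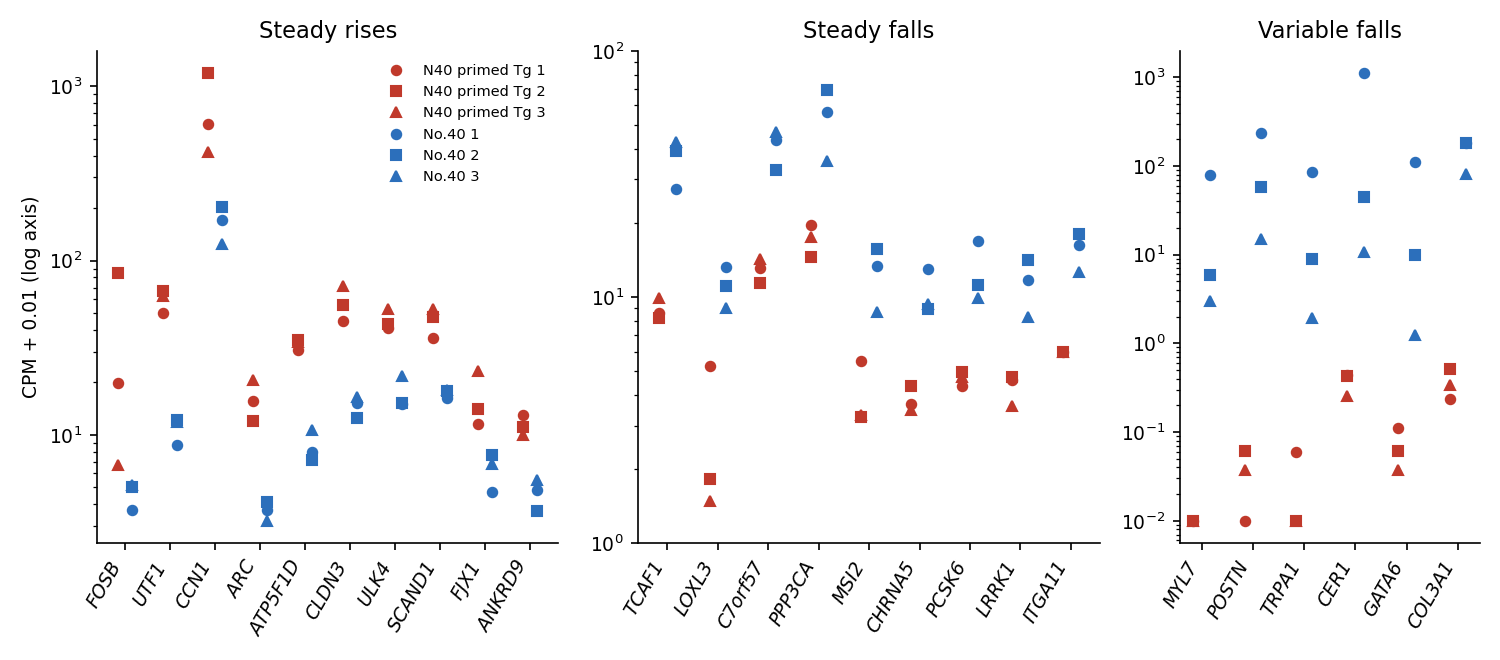
CPM plus 0.01 on a log axis, with its own range in each panel, for the 10 largest steady rises, 9 of the largest steady falls and the 6 largest variable falls in each N40 primed Tg library (red) and No.40 library (blue), with circles, squares and triangles for replicates 1, 2 and 3. UTF1 stands at 49.9 to 66.5 CPM in N40 primed Tg and at 8.72 to 12.1 CPM in No.40, while CER1 spans 10.8 to 1113 CPM among the No.40 libraries alone.

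The steady and clear falls held 7 of the 132 matrix genes, a share no higher than the 7.04% of all genes tested in that class. LOXL3, a lysyl oxidase that crosslinks collagen, had 5.25, 1.81 and 1.48 CPM in N40 primed Tg, against 13.2, 11.1 and 9.03 CPM in No.40 (adjusted p = 0.00238). ITGA11, a collagen-binding integrin subunit, had 5.96, 5.95 and 5.95 CPM in N40 primed Tg, against 16.3, 18 and 12.6 CPM in No.40 (adjusted p = 0.00039). The others named here were of other functions. TCAF1, a partner of TRP channels, had 8.58, 8.22 and 9.90 CPM in N40 primed Tg, against 27.4, 39.2 and 42.6 CPM in No.40 (adjusted p = 0.0047). PPP3CA, the catalytic subunit of calcineurin, had 19.5, 14.5 and 17.5 CPM in N40 primed Tg, against 56.2, 69.3 and 35.6 CPM in No.40 (adjusted p = 0.00016). MSI2, an RNA-binding protein of progenitor cells, had 5.46, 3.24 and 3.30 CPM in N40 primed Tg, against 13.4, 15.6 and 8.71 CPM in No.40 (adjusted p = 0.00169). None of these overlapped between the groups. The nicotinic receptor gene CHRNA5, the convertase gene PCSK6, the kinase gene LRRK1 and C7orf57 were also among the largest.

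Among the largest steady falls, PCSK6 and LRRK1 lie near each other in the genome, and a search along the gene order of the marmoset RefSeq assembly calJac240_pri followed, chosen after these values were seen. By symbol, 11296 tested genes were placed, and 8929 of them had a mean of at least 3 CPM in either group. A run was a stretch over which the running median log2 fold change of 11 neighbouring genes passed 0.5 in size for at least 11 successive genes. There were 2 runs of lower genes, none of higher genes and none of either kind in DSY-c2 primed Tg over DSY127. A window of 21 genes or a threshold of 0.6 also gave 2 runs. A threshold of 0.4 gave 8, of which 5 were lower and 3 higher. The edges of the first run moved: it went from PDE1C to LANCL2 (48 genes) with the window of 21 genes. With the threshold of 0.4 it went from PDE1C to EGFR (47 genes). The second run kept its 34 genes in these settings. Positions are those of the RefSeq assembly, since the build behind the counts is not given in the sources used here, and DNA copy number was not measured.

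The first run goes from AMPH to EGFR and held 33 genes, of which 31 were called lower, all 31 clear and 25 of them steady and clear. The median log2 fold change was -0.93 (quartiles -1.23 and -0.78). VPS41, a subunit of the HOPS tethering complex, had 43.5, 39.3 and 38.6 CPM in N40 primed Tg, against 81.3, 85.9 and 85.0 CPM in No.40 (adjusted p = 4.38e-07). OGDH, an enzyme of the citric acid cycle, had 83.3, 73.7 and 71.6 CPM in N40 primed Tg, against 128, 144 and 140.0 CPM in No.40 (adjusted p = 5.91e-05). The run also held the DNA polymerase subunit gene POLD2, the Hedgehog effector gene GLI3 and, among the variable falls, MYL7 and INHBA. LANCL2, the next gene after EGFR, was not called (log2 fold change 0.05).

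The second run goes from TUBGCP5 to MCTP2 and held 34 genes, of which 28 were called lower and 1 higher, with a median of -1.03 (quartiles -1.17 and -0.74). All 28 falls were clear and 27 were steady and clear. UBE3A, the ubiquitin ligase of Angelman syndrome in humans, had 76.1, 77.8 and 81.7 CPM in N40 primed Tg, against 173, 172 and 158 CPM in No.40, and fell by 1.09 ± 0.06 on the log2 scale (SE, adjusted p = 8.52e-08). TJP1, the tight junction protein ZO-1, had 141, 149 and 159 CPM in N40 primed Tg, against 274, 269 and 280.5 CPM in No.40 (adjusted p = 7.57e-06). HERC2, another ubiquitin ligase, had 89.2, 102 and 134 CPM in N40 primed Tg, against 255, 257 and 272 CPM in No.40 (adjusted p = 2.73e-05). The one gene called higher was SNRPN, at 71.4, 77.7 and 67.8 CPM in N40 primed Tg, against 30.2, 47.1 and 48.1 CPM in No.40 (log2 fold change 0.79 ± 0.16, SE, adjusted p = 0.00327). Its neighbours SNURF and NDN were not called (0.35 and 0.17). In humans these 3 genes are imprinted and expressed from the paternal allele, while the genes around them are mostly biallelic. SNURF and SNRPN share a transcript, so their counts may not be fully separate. SNRPN also rose in DSY-c2 primed Tg over DSY127 (0.87, adjusted p = 0.00943), as did SNURF (0.98, adjusted p = 0.00194), while UBE3A was not called there (adjusted p = 1). MRPL46, the next gene after MCTP2, was higher in N40 primed Tg (0.56, adjusted p = 0.0057). No gene placed with at least 3 CPM came before TUBGCP5 on its chromosome, so the run has no flank on that side.

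The 2 runs were chosen on this contrast, so their counts describe them. Relative to the mean of the DSY127 libraries, the median gene of the first run stood at -1.02, -0.97 and -0.86 on the log2 scale in N40 primed Tg, against 0.05, 0.03 and 0.01 in No.40. The median gene of the second run stood at -1.12, -1.09 and -0.98 in N40 primed Tg, against -0.04, -0.11 and 0.04 in No.40. N40 naive TgOFF and DSY-c2 naive TgON, which share no library with the comparison, were also compared at the same genes. These groups differ both in line and in TgOFF or TgON, which cannot be told apart. Lane numbers were 1 and 2, except 6 and 7 for DSY-c2 naive TgON replicates 1 and 2. In the first run 23 of 33 genes (69.7%) were called lower in N40 naive TgOFF and none higher, with a median of -0.71. In the second run 22 of 34 (64.7%) were called lower and none higher, with a median of -0.73. Over all tested genes, 17.6% were called lower in that contrast, and over the placed genes outside the runs 21.4% were, with a median of 0. Within the top quartile of genes by locus length, the runs' medians in N40 primed Tg over No.40 were -1.06 and -1.10, and within the bottom quartile they were -0.79 and -0.50.

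**Figure D5:**
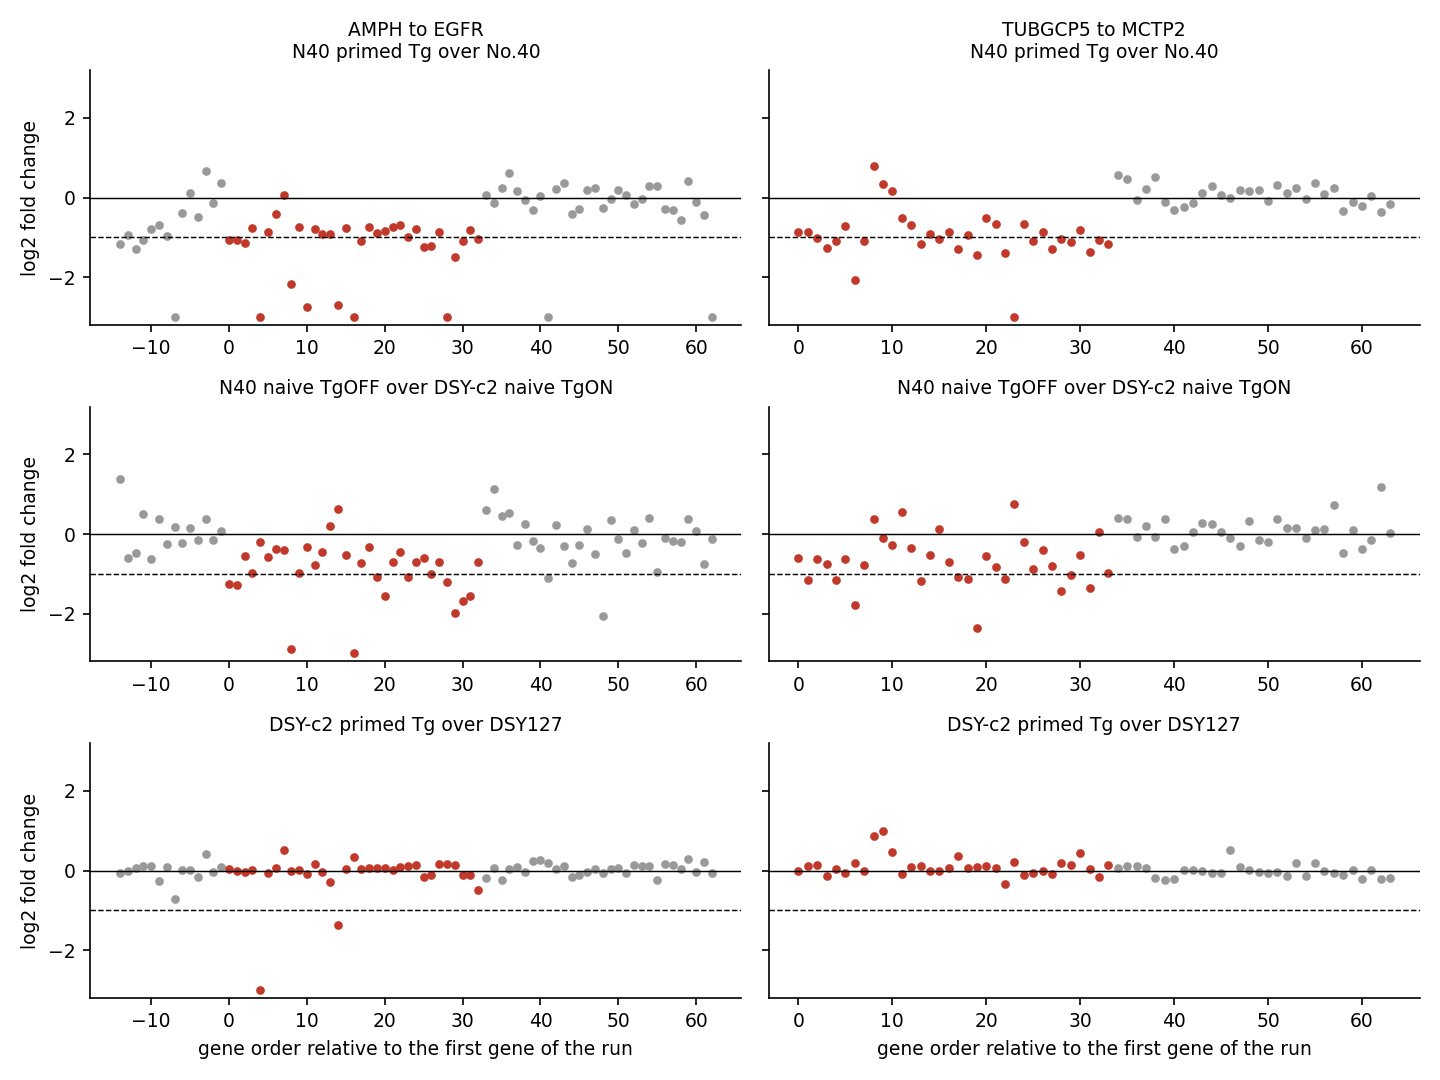
Log2 fold change (vertical axis, values beyond 3 drawn at 3) of genes in their order on the RefSeq assembly, counted from the first gene of each run (horizontal axis), for the run from AMPH to EGFR (left) and from TUBGCP5 to MCTP2 (right), with run genes in red and up to 30 genes on each side in grey. The dashed line marks a 2-fold lower level; medians are -0.93 and -1.03 in N40 primed Tg over No.40 (top) and -0.71 and -0.73 in N40 naive TgOFF over DSY-c2 naive TgON (middle), while DSY-c2 primed Tg over DSY127 (bottom) lies near 0.

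The runs hold a small share of the steady falls: 52 of the 832 placed steady and clear falls lay in them, and 39 of the 201 that were lower by at least 0.8 on the log2 scale. Steady changes also differed by gene length. Among the 8929 placed genes, split into quartiles by locus length on the RefSeq assembly, the median log2 fold change was 0.15 in the shortest quartile and -0.15 in the longest. Across genes, Spearman's rho of locus length and fold change was -0.32, against -0.12 for DSY-c2 primed Tg over DSY127. Genes are not independent replicates, and no test was made. The shortest quartile held 47.0% of the placed steady and clear rises and 8.41% of the steady and clear falls, while the longest held 6.95% and 40.9%. With each of the 6 libraries left out in turn, rho ranged from -0.36 to -0.27. The part of locus length in the steady changes was not tested.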

How the data were processed

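RNA was isolated with the RNeasy Mini kit, and its poly(A)+ fraction was made into stranded TruSeq libraries, per the labels' protocols. Per the submitters' processing notes, the tools were Trim Galore 0.4.0, STAR 2.5.3a and featureCounts 1.5.2. The genome build and annotation are both not given in the sources used here. Per gene ID, the authors deposited unnormalized counts for 30811 IDs, with 2 run columns for each library, which were summed. Chi-square divided by the number of genes was 1.956 to 1.99 between run columns and 48.8 to 173 between libraries within a group. Another 6 columns of no sample here were not used. Of counts from 1 to 49, 65.3% were even, so mates of a pair may be counted separately, and counting bounds and intervals are optimistic.

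The 18 ESC libraries were fitted with the quasi-likelihood test of edgeR 4.0.16 in R 4.3.3 (filterByExpr, TMM, robust), with Benjamini-Hochberg adjustment and a threshold of 0.05. The SE is the log2 fold change over the square root of F. Levels are CPM on TMM-scaled totals; log2 CPM used a prior count of 2. Symbols covered 41.1% of IDs. The fit was also tested on simulated data, with means taken from libraries of this comparison. Of genes changed 2-fold, 61 of 100 were recovered, and of those changed 4-fold, 78 of 100. There were 9 false calls among 148, over 17768 genes. These shares hold for the simulated data only. Whether they carry over to the real calls, where many genes shared the same differences among replicate libraries, was not tested.

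Genes named included list members, some of them not called or below 10 CPM. The runs of neighbours were added after values were seen. The 4 largest differences each way between the pairs were named under the same limit of 10 CPM. The others were the 10 largest steady rises and falls and up to 6 of the largest variable ones. These were called, with a symbol of 1 ID and at least 10 CPM in the higher group. One gene under this rule is not reported here. The groups, classes and gene lists were chosen with earlier results of these data known. Alternatives were the size factors and the test of DESeq2 1.42.0, other filters, fits of 6 or 12 libraries, a replicate block, halved counts, single run columns, a test against a 2-fold change and leaving out libraries.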

Additional observations from a re-analysis of the deposited data

Results flagged for a closer look

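For 31 of the genes named in the text, the change in N40 primed Tg against No.40 differed from the change in DSY-c2 primed Tg against DSY127 in the edgeR quasi-likelihood test of that difference (adjusted p under 0.05, 3 libraries in each of 4 groups). Over all genes tested, the difference was called for 570 of 17957 (3.17%). The named genes were chosen in part by size of change or difference in these same libraries, so 31 follows in part from that choice. The values that follow are the change in the N40 pair minus the change in the DSY pair, on the log2 scale. Those above 0 were 4.90 for FOSB, 2.22 for PGM5, 1.87 for UTF1, 1.75 for ARC, 1.68 for CLDN3, 1.42 for ULK4, 1.30 for ATP5F1D and 1.10 for SCAND1. Those below 0 among steady falls were -1.52 for PCSK6, -1.39 for C7orf57 and -1.21 for CHRNA5. Those below 0 among variable falls were -14.17 for MYL7, -12.77 for CER1, -11.09 for POSTN, -10.64 for TRPA1 and -10.43 for GATA6. These 5 rest on N40 primed Tg libraries with few or no counts, so their fitted sizes depend on the prior count and are no bounds. Other variable falls had -9.82 for CDKN2B, -7.96 for ARGFX, -6.0 for SPRY2, -5.06 for FN1 and -4.46 for KLF17, with the same limit for CDKN2B, ARGFX and SPRY2. Other steady falls outside the runs had -1.80 for PEG3, -0.60 for LIN28B and -0.53 for BMPR1A. Genes of the runs of neighbours had -1.14 for HERC2, -1.09 for UBE3A, -1.04 for VPS41, -0.98 for GRB10, -0.93 for TJP1, -0.92 for OGDH and -0.82 for POLD2. PGM5, a phosphoglucomutase-like protein of cell adhesions, was not called in either pair: it had 216, 269 and 204 CPM in N40 primed Tg against 72.8, 176 and 174 CPM in No.40, and 15.5, 9.64 and 28.5 CPM in DSY-c2 primed Tg against 36.9, 71.5 and 44.7 CPM in DSY127.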

How the results depend on the processing

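No run's median changed sign under the alternatives run, nor did the fold change of any of the 38 genes run under every alternative. The numbers of calls changed, and so did which direction had more of them: 1873 genes were called higher and 1816 lower with no filter on low counts. The fit of the 6 libraries alone called 1748 genes, 702 higher (all 702 clear, 686 steady and clear) and 1046 lower (all 1046 clear, 542 steady and clear, 504 variable). Of its calls, 1682 were among the 3937. With the replicate number as a block, the fit of 18 libraries called 3865 genes, and the fit of 6 libraries called 934: 319 higher (312 clear, 303 steady and clear) and 615 lower (602 clear, 256 steady and clear, 359 variable). Deviations of same-numbered libraries from their group means correlated at -0.1, 0.126 and -0.116, and those of differently numbered libraries at -0.145 to 0.22. With 3 libraries in each group these values constrain each other, so they cannot decide whether the numbers pair the libraries. A test against a 2-fold change called 494 genes, 24 higher (24 clear, 18 steady and clear) and 470 lower (466 clear, 40 steady and clear, 430 variable), and 19 for the difference between the pairs. With a 4-fold spread as the limit, 604 falls were variable. The difference between the pairs was called for 352 genes with no filter and for 1419 with DESeq2. With 1 library left out, calls numbered 2571 to 4740, 1132 to 2528 higher (1105 to 2332 clear, 1079 to 2303 steady and clear) and 1322 to 2212 lower (1289 to 2168 clear, 657 to 1555 steady and clear, 627 to 941 variable), and 205 to 907 for the difference. The run medians ranged from -0.98 to -0.83 and from -0.96 to -0.83. Of these 38 genes, 10 were no longer called in the fit of 6 libraries, where 1 could not be fitted. In the test against a 2-fold change, 23 of the 38 were no longer called. Of the 76 called genes named in the text, 14 lost their call without No.40 replicate 1, 12 without N40 primed Tg replicate 3, 10 without N40 primed Tg replicate 2 and 1 to 3 without each of the others, an alternative chosen after seeing the data. The causes were not tested. Genes with few or no counts in N40 primed Tg have no reliable fold change.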

Other observations

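Of 21 tested imprinted genes, 1 rose and 6 fell, where 8.3% of all tested genes were called higher and 13.6% lower. SNRPN, which rose, and UBE3A and GRB10, which fell, lie in the runs, while PEG3, IGF2, L3MBTL1 and ZDBF2 also fell. PEG3, a paternally expressed zinc finger gene in mouse and human, had 453, 428 and 504 CPM in N40 primed Tg, against 813, 898 and 1008 CPM in No.40, and fell by 0.97 ± 0.13 on the log2 scale (SE, adjusted p = 0.000159). In the other pair it had 1753, 1492 and 1777 CPM in DSY-c2 primed Tg, against 869.6, 988 and 982 CPM in DSY127, and it rose by 0.82 ± 0.13 (SE, adjusted p = 0.00253). The difference between the pairs was -1.80 ± 0.19 (SE, adjusted p = 8.93e-05). IGF2, a growth factor gene, had 0.0251, 0.0259 and 0.0815 CPM in N40 primed Tg, against 2.05, 12.6 and 3.10 CPM in No.40, and fell (adjusted p = 0.00159).

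Beside the same shares of all genes, 4 of 26 cell cycle genes rose and 1 fell, and the 4 that rose were the helicase subunits MCM2, MCM3, MCM6 and MCM7, by 0.30, 0.31, 0.41 and 0.38 on the log2 scale (adjusted p = 0.0267, 0.0303, 0.0022 and 0.0156). The call of MCM6 held with each of the 6 libraries left out, and the other 3 were lost without N40 primed Tg replicate 3. The one that fell was CDKN2B, a CDK inhibitor, at 0 counts in each N40 primed Tg library, against 2.22, 2.80 and 0.0170 CPM in No.40. In the integrated stress response list 3 of 14 rose and 1 fell. SLC3A2, the heavy chain of amino acid transporters, had 441, 617 and 605 CPM in N40 primed Tg, against 400.5, 301 and 397 CPM in No.40 (adjusted p = 0.00559).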
